A study of Mus musculus with 10 samples.

Results

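The genes of cholesterol synthesis, uptake and sterol export were examined in the livers of germ-free (GF) mice given gut microbiota-derived extracellular vesicles (MEV), the small membrane particles that gut bacteria shed. The set was a list of 31 genes named by their role in the pathway, all of which were found by symbol among the 12148 genes of the count table. Both groups were wild-type (WT) germ-free C57BL/6 mice. The 5 GF+MEV mice received 80 μg MEV in PBS by mouth, 2 doses a week for 3 weeks, and the 5 GF+PBS mice received PBS alone. The vesicles had been isolated from the cecal content and stool of control mice, dosing was in the late afternoon, and the age and sex of the germ-free mice and the hour of liver collection were not given in the sources used here. RNA of the whole liver was sequenced in bulk, so fewer cells of a type and less RNA per cell cannot be told apart.

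Hepatocytes make cholesterol from acetyl-CoA. HMG-CoA formed by HMGCS1 is reduced to mevalonate, mevalonate is phosphorylated and decarboxylated to isoprenoid units, and these are joined into farnesyl diphosphate and then squalene. Squalene is oxidised and folded by LSS into lanosterol, which a series of sterol enzymes trims to cholesterol. The pathway is held in balance by a sensor in the endoplasmic reticulum. When membrane sterol is low, SCAP escorts the transcription factor SREBP-2 to the Golgi, where it is cut and released to switch on nearly every gene of the route. When sterol is high, the INSIG proteins retain SCAP, while oxysterols activate the LXR receptors, whose targets ABCA1, ABCG5 and ABCG8 carry sterol out of the cell. In the liver ABCG5 and ABCG8 form the pump that passes cholesterol into bile.

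Of the 31 genes, 6 fell in GF+MEV livers, and 0 rose, in edgeR's quasi-likelihood test at a Benjamini-Hochberg adjusted p under 0.05. They were *Mvd*, *Fdps*, *Lss* and *Sc5d*, which encode synthesis enzymes, *Insig1*, a brake on SREBP-2, and *Acat2*, a cytosolic thiolase. The 6 were 19.4% of the list. At an unadjusted p under 0.05 in edgeR, 10 of the 31 genes were lower and 0 higher. The share of all genes at that unadjusted threshold was not counted, so this number has no background beside it. At an adjusted p under 0.05, DESeq2 and limma-voom also called 0 of the 31 genes higher. GF+PBS replicates 1 and 3 were also summed into 1 sample, and replicates 4 and 5 into another. This left fewer GF+PBS samples in the fit, so its calls are not directly comparable with those from all 10 livers. Then 1 of the 31 genes was called (*Sc5d*), beside 4.62% of all genes tested. The edgeR adjusted p rose to 0.07 for *Mvd*, 0.0891 for *Fdps*, 0.0627 for *Lss*, 0.0527 for *Insig1* and 0.102 for *Acat2*. Over all 12147 genes tested, 3.52% fell and 4.12% rose, 7.64% in either direction. The log2 fold change of GF+MEV over GF+PBS was below 0 for 26 of the 31 genes (83.9%) and for 51.0% of all genes tested, and its median was -0.12 over the list and -0.0037 over all genes tested. The differences were small: the fold changes of the list ran from -0.67 to 0.30 on the log2 scale.

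**Figure D1:**
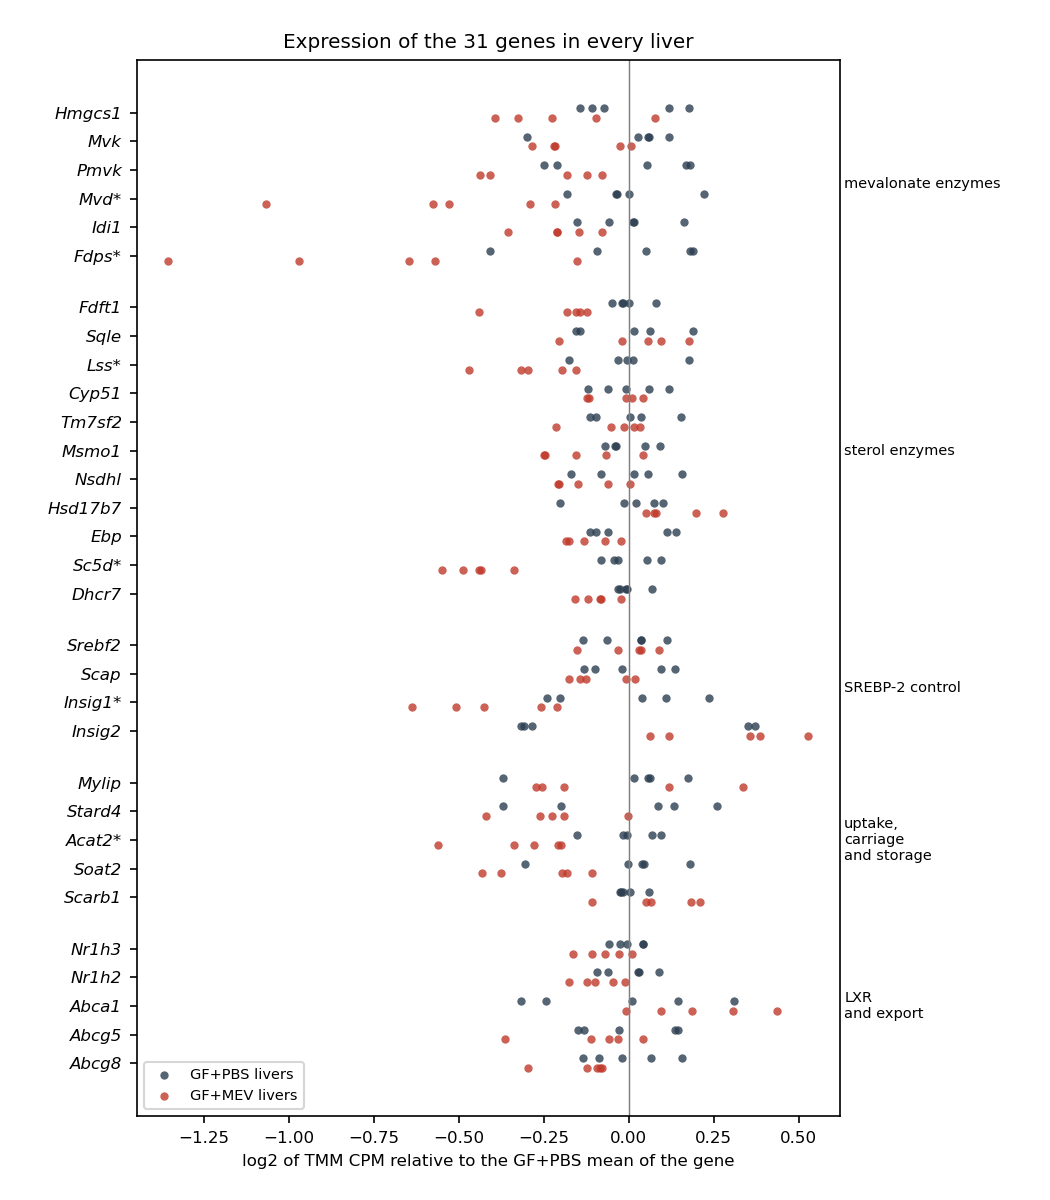
Each point is 1 liver, and the horizontal axis is the log2 of its CPM (counts scaled to a common library size with edgeR's TMM factors) relative to the mean of the 5 GF+PBS livers for that gene, with the genes grouped by role and an asterisk on the 6 that passed the test. The GF+MEV points of *Mvd*, *Fdft1*, *Sc5d* and *Acat2* lie wholly to the left of the GF+PBS points, whereas those of the other 27 genes overlap them.

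The libraries held 15746119 to 20523649 gene counts in GF+MEV livers and 16140770 to 19733387 in GF+PBS livers. Hepatocyte markers were present in full, 7 of 7, and their summed level was 96000 to 115000 CPM in GF+MEV livers and 99500 to 116000 CPM in GF+PBS livers, although *Cps1* and *Ass1* of this list passed the test as higher in GF+MEV livers. Of the markers of other cells, the bile duct gene *Krt19* was higher and the B cell genes *Cd79a* and *Cd79b* were lower in GF+MEV livers. The summed bile duct level was 28.1 to 79.3 CPM against 23.2 to 29.7 CPM, with 3 of 5 markers in the table. The summed lymphocyte level was 8.21 to 15.5 CPM against 13.5 to 16.4 CPM, with 4 of 5 in the table. *Clec4g* and *Lyve1*, 2 of the 7 sinusoidal endothelial markers, passed in opposite directions, the Kupffer cell, stellate cell, skeletal muscle and pancreas lists held no called gene in edgeR, and no adipocyte marker was in the table. The summed skeletal muscle level spread widely among the controls, at 191 to 664 CPM in GF+PBS livers against 224 to 310 CPM in GF+MEV livers. The part of these cells in the differences below was not tested.

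The GF+PBS livers were not alike. Replicates 1 and 3 held 19.6 and 23.1 CPM of the clock gene *Per3*, against 57.7 to 68.1 CPM in replicates 2, 4 and 5 and 26.5 to 43.4 CPM in the 5 GF+MEV livers. *Arntl*, which encodes the clock activator BMAL1, ran the other way, with 3.61 and 4.23 CPM in replicates 1 and 3 and 1.18 to 1.92 CPM in replicates 2, 4 and 5. *Per1* was at 15.5 to 16.4 CPM in replicates 1 and 3, at 37.1 to 40.3 CPM in replicates 2, 4 and 5, and at 85.2 to 101 CPM in GF+MEV livers. *Insig1*, *Insig2* and *Stard4*, singled out after their values were seen, divided the GF+PBS livers along the same line, and *Srebf2* did not. *Hmgcs1*, *Pmvk*, *Idi1*, *Cyp51*, *Tm7sf2*, *Nsdhl*, *Scap* and *Nr1h2* were also higher in both replicates 1 and 3 than in replicates 2, 4 and 5. *Abcg5* and *Abcg8* were lower in both. Some of these gaps were narrow, as for *Idi1*, at 88.4 CPM in replicate 1 and 88.15 CPM in replicate 2. Each count was therefore also taken without replicates 1 and 3 and without replicates 2, 4 and 5, alternatives chosen after the data were seen. The first left 5 of the 31 genes called (*Insig1*, *Insig2*, *Lss*, *Sc5d* and *Stard4*), beside 6.32% of all genes tested. The second left 4 (*Acat2*, *Fdps*, *Pmvk* and *Sc5d*), beside 8.17% of all genes. *Sc5d* was thus the only gene called in both. The levels of *Insig1*, *Insig2* and *Stard4* themselves follow this division, so their calls against replicates 2, 4 and 5 support nothing about these genes. *Pmvk* was highest in replicates 1 and 3, so its call against them likewise supports nothing about *Pmvk*.

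The promoters of 25 of the 31 genes had a sequence in the RefSeq table (build GRCm38.p6), covering 250 bases before to 50 bases after the transcription start. Each window was searched on both strands for the core of the sterol regulatory element bound by SREBP-2 (TCACNCCAC), the box bound by its partner NF-Y (CCAAT), and the E-box (CACGTG). The stretches below are printed because *Sc5d*, *Mvd* and *Insig1* were among the genes that fell, and *Hmgcs1* alone carried the sterol element core. The last stretch is the whole gap between the divergent starts of the *Abcg5* and *Abcg8* pair. All are written 5′ to 3′ on the strand given, the first 4 on the strand of the gene, in lower case with matches to the 3 motifs in capitals (a CCAAT box on the other strand reads as ATTGG). The *Sc5d* stretch (chr9:42264301-42264550, minus strand) holds an E-box 98 to 93 bases and a CCAAT box 24 to 20 bases before the start. The *Mvd* stretch (chr8:122443423-122443672, minus strand) holds a CCAAT box on each strand, at 60 to 56 and 27 to 23 bases before the start. The *Insig1* stretch (chr5:28071162-28071362, plus strand) ends 50 bases before the RefSeq start and holds a CCAAT box and an E-box. The *Hmgcs1* stretch (chr13:119690101-119690350, plus strand) holds the sterol element core 137 to 129 bases before the start, between CCAAT boxes. The *Abcg5* and *Abcg8* stretch (chr17:84683012-84683120, plus strand) holds none of the 3.
Sc5d: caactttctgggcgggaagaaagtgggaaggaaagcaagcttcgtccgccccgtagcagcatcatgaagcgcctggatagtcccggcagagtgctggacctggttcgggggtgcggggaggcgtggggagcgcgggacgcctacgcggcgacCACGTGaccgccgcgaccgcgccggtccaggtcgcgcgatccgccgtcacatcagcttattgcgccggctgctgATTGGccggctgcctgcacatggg
Mvd: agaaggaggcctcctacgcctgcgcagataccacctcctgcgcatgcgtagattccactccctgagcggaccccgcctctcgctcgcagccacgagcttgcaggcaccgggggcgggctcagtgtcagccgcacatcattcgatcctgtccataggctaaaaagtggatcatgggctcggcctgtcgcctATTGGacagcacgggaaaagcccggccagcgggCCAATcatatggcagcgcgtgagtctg
Insig1: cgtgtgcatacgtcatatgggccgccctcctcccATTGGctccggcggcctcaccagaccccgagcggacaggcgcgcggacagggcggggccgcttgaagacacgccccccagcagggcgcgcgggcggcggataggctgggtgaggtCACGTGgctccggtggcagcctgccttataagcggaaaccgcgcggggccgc
Hmgcs1: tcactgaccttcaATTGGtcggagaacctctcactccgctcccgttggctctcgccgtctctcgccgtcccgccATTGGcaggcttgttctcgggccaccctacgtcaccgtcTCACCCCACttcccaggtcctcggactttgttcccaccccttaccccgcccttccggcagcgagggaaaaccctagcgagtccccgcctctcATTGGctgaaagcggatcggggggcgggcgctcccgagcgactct
Abcg5-Abcg8: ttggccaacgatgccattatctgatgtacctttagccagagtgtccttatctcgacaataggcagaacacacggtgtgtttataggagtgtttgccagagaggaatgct
The CCAAT box was found in the windows of 18 of the 25 genes (72%) and in 38.8% of the 9370 windows of the table. The E-box was found in 5 of 25 (20%; *Hsd17b7*, *Sc5d*, *Scap*, *Insig1* and *Abca1*) and in 10.3% of all windows, and the sterol element core in 1 of 25 (4%) and in 1.2%. Of the 5 genes that fell and had a window, 4 held a CCAAT box, 2 an E-box and 0 the sterol element core. A match is a string of letters in the window and was not tested as a binding site. A sterol element with other letters, or outside the window, would be missed, so a gene without a match is not shown to lack one.

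The 6 enzymes of the mevalonate route all had log2 fold changes below 0, as had 51.0% of all genes tested, with a median of -0.22. Of the 6, 2 fell (33.3%, against 3.52% of all genes tested). *Mvd* (ENSMUSG00000006517, chromosome 8, 122433601 to 122443422, minus strand) encodes the decarboxylase that makes isopentenyl diphosphate. Its level was 51.5, 41.5, 49.0, 28.6 and 40.2 CPM in GF+MEV replicates 1 to 5 and 58.4, 69.8, 58.4, 59.9 and 52.7 CPM in GF+PBS replicates 1 to 5. Every GF+MEV liver was below every GF+PBS liver, although the highest GF+MEV value and the lowest GF+PBS value were close, and GF+MEV replicate 4 was far below the rest. The means were 42.1 ± 8.97 CPM against 59.8 ± 6.20 CPM (SD, n = 5 each), so that *Mvd* fell by 29.6% (log2 fold change -0.51, SE 0.13, edgeR adjusted p = 0.0252). The call was lost without GF+MEV replicate 2 or 5 or GF+PBS replicate 2 or 4, with fold changes from -0.59 to -0.39 over the livers left out 1 at a time.

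*Fdps* (ENSMUSG00000059743, chromosome 3, 89093588 to 89101959, minus strand) encodes farnesyl diphosphate synthase, at the branch from which squalene and the prenyl groups of proteins are both made. It was the least abundant enzyme of the list per length of exon, at 1.91 CPM per kb in GF+MEV and 3.06 CPM per kb in GF+PBS livers, from 73 to 264 counts a library. Its level was 8.66, 5.04, 11.6, 6.57 and 8.22 CPM in GF+MEV replicates 1 to 5 and 14.7, 14.6, 13.3, 9.70 and 12.1 CPM in GF+PBS replicates 1 to 5. The groups overlapped, since GF+MEV replicate 3 was above GF+PBS replicate 4. *Fdps* fell by 37.1% (log2 fold change -0.67, SE 0.18, edgeR adjusted p = 0.0355), and lost its call without GF+MEV replicate 1, 2, 4 or 5 or GF+PBS replicate 1, 2 or 3, with fold changes between -0.85 and -0.54. Its exons share 1124 bases with the gene model Gm43738 on the same strand, which had no row in the table, so its counts may leave out reads that both genes could claim.

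The other 4 mevalonate enzymes did not pass. *Hmgcs1*, which encodes the cytosolic HMG-CoA synthase at the entry of the route, was the most abundant of the 6 per length, at 65.3 CPM per kb in GF+MEV and 74.1 CPM per kb in GF+PBS livers. Its level was 291, 359, 271, 259 and 319 CPM in GF+MEV replicates 1 to 5 and 385, 316, 369.6, 308 and 324 CPM in GF+PBS replicates 1 to 5. The groups overlapped broadly, with GF+MEV replicate 2 above 3 of the GF+PBS livers (log2 fold change -0.18, SE 0.090, edgeR adjusted p = 0.273). *Mvk* and *Pmvk*, the kinases on either side of phosphomevalonate, and *Idi1*, the isomerase of isopentenyl diphosphate, had log2 fold changes of -0.14, -0.24 and -0.20, with edgeR adjusted p of 0.369, 0.18 and 0.104.

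**Figure D2:**
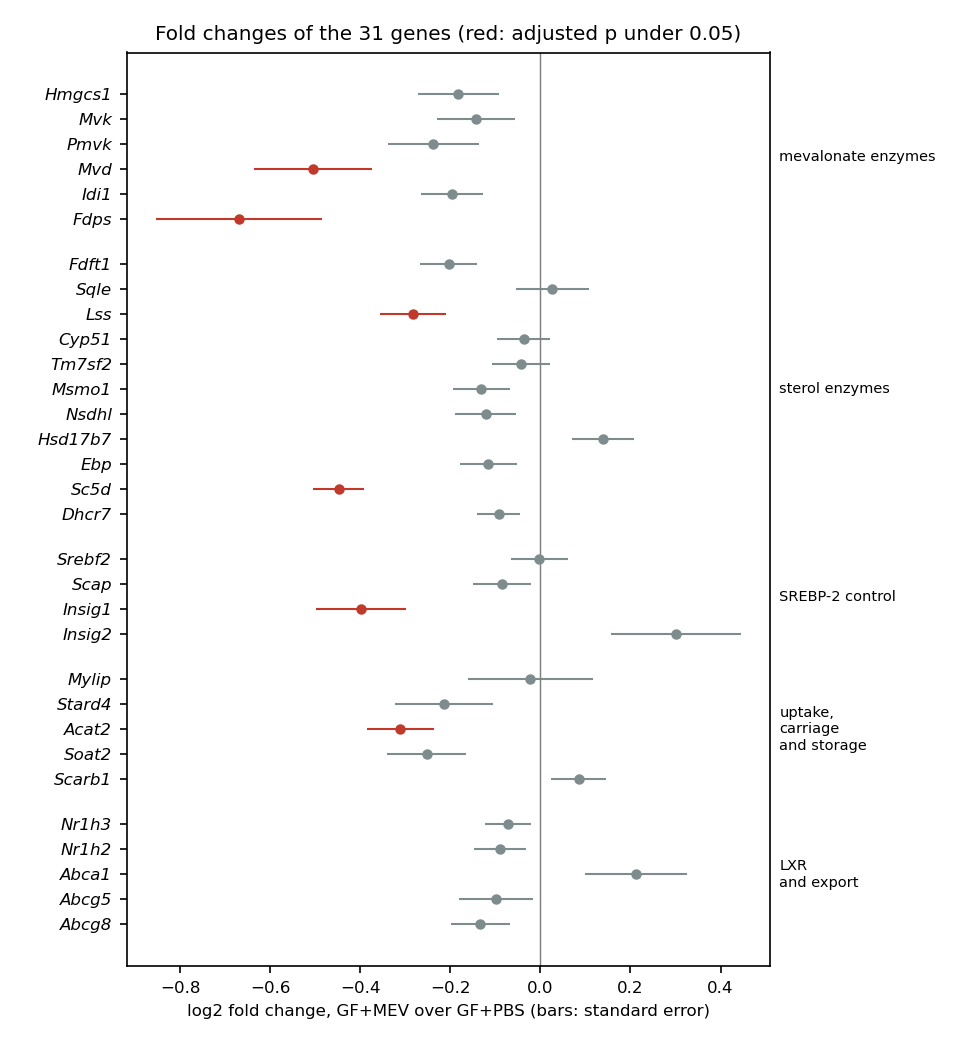
Points are edgeR log2 fold changes of GF+MEV over GF+PBS livers (5 livers a group). The 6 genes at an adjusted p under 0.05 are in red. Bars are standard errors from a separate limma fit to log2 CPM. The 6 red points lie between -0.67 and -0.28, the 6 mevalonate enzymes all lie left of 0, and *Insig2* and *Abca1* lie farthest to the right.

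Among the 11 enzymes from squalene to cholesterol, 2 fell (18.2%, against 3.52% of all genes tested). The log2 fold change was below 0 for 9 of the 11 (81.8%, against 51.0% of all genes tested), with a median of -0.12. *Sc5d* (ENSMUSG00000032018, chromosome 9, 42251595 to 42264256, minus strand) encodes the desaturase that sets the double bond characteristic of cholesterol late in the route. It had the highest level per length of the 31 genes, with *Insig1* close behind it, at 115 CPM per kb in GF+MEV and 157 CPM per kb in GF+PBS livers. Its level was 605, 564, 522, 546 and 566 CPM in GF+MEV replicates 1 to 5 and 741, 723, 749, 794 and 816 CPM in GF+PBS replicates 1 to 5. The groups were well apart, and GF+PBS replicates 1 and 3, which stood apart on clock genes, lay within the range of the other 3 GF+PBS livers. *Sc5d* fell by 26.7%, from 765 ± 38.8 CPM to 560.4 ± 30.4 CPM (SD, n = 5 each; log2 fold change -0.45, SE 0.056, edgeR adjusted p = 0.000203). It passed in all 20 alternative analyses, with fold changes between -0.49 and -0.41. The promoter shown above for it is 1 of 5 among the 25 with an E-box.

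*Lss* (ENSMUSG00000033105, chromosome 10, 76531588 to 76557138, plus strand) encodes lanosterol synthase, which folds the squalene chain into the first sterol. Its level was 79.8, 85.6, 88.1, 70.9 and 78.6 CPM in GF+MEV replicates 1 to 5 and 86.8, 111, 98.9, 97.7 and 95.9 CPM in GF+PBS replicates 1 to 5. GF+PBS replicate 1 lay inside the range of the GF+MEV livers and the other 4 GF+PBS livers lay above all of them. *Lss* fell by 17.8% (log2 fold change -0.28, SE 0.074, edgeR adjusted p = 0.0304). Leaving out 1 liver at a time kept its fold change between -0.32 and -0.23, and its call was lost without GF+MEV replicates 1, 4 or 5 or GF+PBS replicates 2, 3 or 4. An antisense gene without a row in the table covers 381 bases of its exons, and the strand setting of the counting was not given in the sources used here.

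*Fdft1* (ENSMUSG00000021273, chromosome 14, 63145150 to 63179578, minus strand) encodes squalene synthase, the first enzyme committed to sterols. Its level was 209.7, 205, 207, 168 and 201 CPM in GF+MEV replicates 1 to 5 and 225, 225, 228, 241 and 221 CPM in GF+PBS replicates 1 to 5. The groups did not overlap, and GF+MEV replicate 4 stood well below its own group. The test did not pass (log2 fold change -0.20, SE 0.063, edgeR adjusted p = 0.0691), although it did with DESeq2 and with upper-quartile normalization. *Ctsb*, an abundant gene on the other strand, shares 774 bases of exon with it. *Fdft1* was thus 1 of 4 genes of the list, with *Mvd*, *Sc5d* and *Acat2*, whose GF+MEV livers were all below their GF+PBS livers. That was 12.9% of the list, against 3.45% of all genes tested.

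The remaining 8 sterol enzymes had log2 fold changes between -0.13 and 0.14 and none passed. *Ebp*, the sterol isomerase that acts just before SC5D, was the most abundant of them per length, at 98.5 CPM per kb in GF+MEV and 107 CPM per kb in GF+PBS livers. Its level was 243, 235, 225, 217 and 218 CPM in GF+MEV replicates 1 to 5 and 271, 231, 236, 266 and 228 CPM in GF+PBS replicates 1 to 5. All 5 GF+MEV livers lay below the highest 2 GF+PBS livers and overlapped the other 3 (log2 fold change -0.12, SE 0.063, edgeR adjusted p = 0.33). *Sqle*, the squalene epoxidase and a rate-limiting step, was at 115 ± 11.2 CPM against 113 ± 11.4 CPM (log2 fold change 0.027, SE 0.081, edgeR adjusted p = 0.9), and *Cyp51*, the lanosterol demethylase, at 261 ± 13.6 CPM against 268 ± 17.6 CPM (SD, n = 5 each). *Tm7sf2*, *Msmo1*, *Nsdhl* and *Hsd17b7*, which act on the ring after CYP51, had log2 fold changes of -0.043, -0.13, -0.12 and 0.14, and *Dhcr7*, the terminal reductase, one of -0.092. The sign of *Sqle* turned to -0.015 under upper-quartile normalization, and those of *Cyp51* and *Tm7sf2* turned to 0.025 and 0.025 without GF+PBS replicates 1 and 3.

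Over the 17 synthesis enzymes together, 4 fell (23.5%, against 3.52% of all genes tested). The log2 fold change was below 0 for 15 of the 17 (88.2%, against 51.0% of all genes tested), and the median was -0.14. GF+MEV replicate 4 was the lowest liver of its group for 11 of the 17 and the highest for 0, while GF+PBS replicate 1 was the highest of its group for 7. Without GF+MEV replicate 4, 3 of the 31 genes were called (*Acat2*, *Mvd* and *Sc5d*), beside 6.8% of all genes tested. The number called was also 3 without GF+MEV replicate 2, GF+PBS replicate 2 or GF+PBS replicate 4, beside 6.47%, 7.43% and 5.8% of all genes. Without GF+MEV replicate 5 it was 2 (*Acat2* and *Sc5d*), beside 6.73% of all genes. That count of 2 of 31 lies near the share over all genes.

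**Figure D3:**
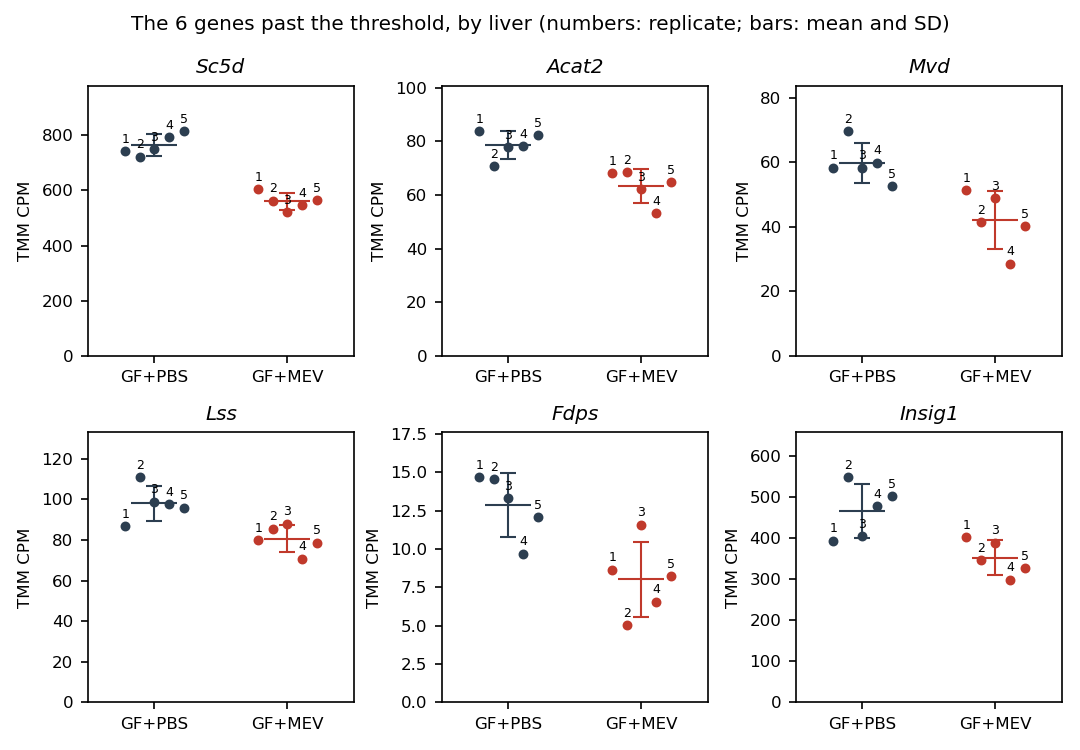
Each panel shows TMM-normalised CPM from 0 for 1 of the 6 genes that fell, with 1 point per liver marked by its replicate number and bars for the mean and SD of the 5 livers. The groups are apart for *Sc5d*, *Acat2* and *Mvd* and meet for *Lss*, *Fdps* and *Insig1*.

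Of the 4 genes that control SREBP-2, 1 fell (25%, against 3.52% of all genes tested). With 4 genes, 1 call is too few to weigh against that share. *Insig1* (ENSMUSG00000045294, chromosome 5, 28071363 to 28078662, plus strand) is itself a target of SREBP-2 and retains SCAP in the endoplasmic reticulum. It had the second highest level per length of the list, at 114 CPM per kb in GF+MEV and 150.2 CPM per kb in GF+PBS livers. Its level was 402, 346, 388, 299 and 327 CPM in GF+MEV replicates 1 to 5 and 393, 547, 404, 477 and 502 CPM in GF+PBS replicates 1 to 5. GF+PBS replicate 1 lay inside the GF+MEV range, replicate 3 just above its top, and replicates 2, 4 and 5 well above it. *Insig1* fell by 24.2% (log2 fold change -0.40, SE 0.10, edgeR adjusted p = 0.0255). As a description, the log2 fold change was -0.53 with GF+PBS replicates 2, 4 and 5 as the controls, the 3 with the highest *Insig1*, and -0.18 with replicates 1 and 3. The call was lost without GF+MEV replicate 2, 4 or 5 or GF+PBS replicate 2, 4 or 5, and with a replicate block (edgeR adjusted p = 0.0685).

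*Insig2* (ENSMUSG00000003721, chromosome 1, 121304353 to 121332589, minus strand) encodes the second INSIG, which in liver is transcribed in part from a promoter repressed by insulin. Its level was 279, 209.9, 202, 248 and 253 CPM in GF+MEV replicates 1 to 5 and 247, 155, 250.4, 159 and 156 CPM in GF+PBS replicates 1 to 5. GF+PBS replicates 1 and 3 lay within the range of the GF+MEV livers, and the other 3 GF+PBS livers lay below it. With all 10 livers *Insig2* did not pass (log2 fold change 0.30, SE 0.14, edgeR adjusted p = 0.258). Its log2 fold change was 0.60 against GF+PBS replicates 2, 4 and 5 and -0.064 against replicates 1 and 3, values given as a description since *Insig2* itself divides the controls this way.

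The log2 ratio of *Insig2* to *Insig1* was -0.526, -0.720, -0.941, -0.268 and -0.369 in GF+MEV replicates 1 to 5. It was -0.671, -1.82, -0.689, -1.59 and -1.68 in GF+PBS replicates 1 to 5. The ratio in GF+PBS replicates 1 and 3 was among those of the GF+MEV livers, and in the other 3 GF+PBS livers it was lower than in any of them. The difference between group means was 0.72 (exact two-sided permutation test over all labelings, p = 0.0556, Benjamini-Hochberg adjusted 0.111 over the 2 ratios examined), which did not pass. The smallest p that 5 livers against 5 allow is 0.00794.

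**Figure D4:**
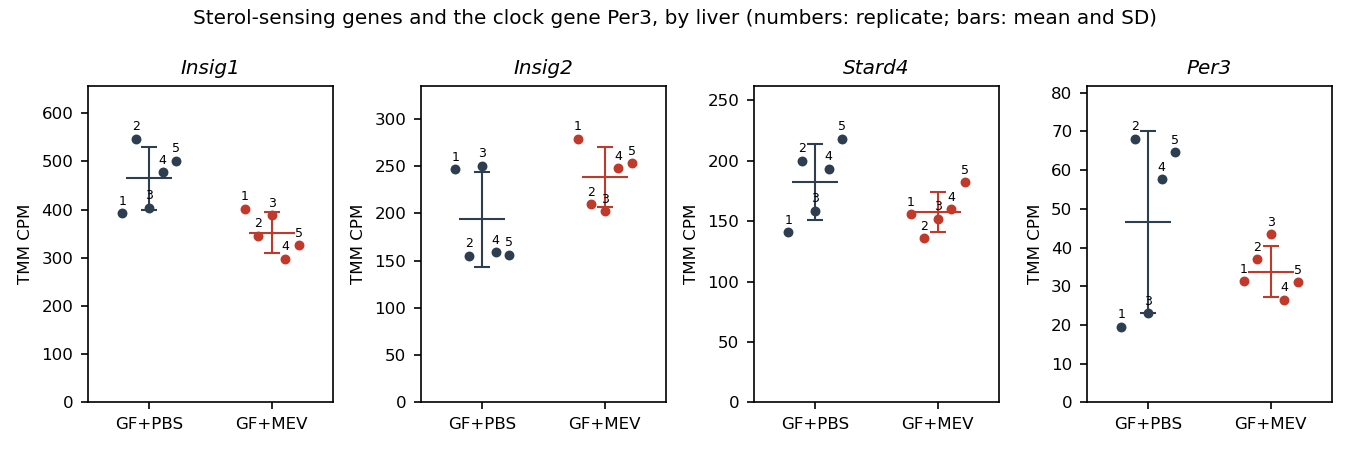
TMM-normalised CPM from 0 of *Insig1*, *Insig2*, *Stard4* and the clock gene *Per3*, with 1 point per liver marked by its replicate number and bars for the mean and SD of the 5 livers. GF+PBS replicates 1 and 3 sit apart from replicates 2, 4 and 5 in all 4 panels, above them for *Insig2* and below them for the other 3 genes.

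The transcripts of SREBP-2 itself and of its escort gave no call. *Srebf2* was at 88.3 ± 5.52 CPM in GF+MEV and 88.5 ± 5.92 CPM in GF+PBS livers (log2 fold change -0.0026, SE 0.063, edgeR adjusted p = 0.99). *Scap* was at 189 ± 11.5 CPM and 201 ± 16.5 CPM (log2 fold change -0.085, edgeR adjusted p = 0.512). These are levels of mRNA, and the cleavage that activates SREBP-2 was not measured.

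The 5 genes listed under uptake, carriage and storage had a median log2 fold change of -0.21, and the 1 that fell, *Acat2*, is by function a synthesis enzyme, left out of the 17 above. That 1 of 5 (20%) stands beside 3.52% of all genes tested, and is too few to weigh against that share. *Acat2* (ENSMUSG00000023832, chromosome 17, 12942890 to 12960747, minus strand) encodes the cytosolic acetoacetyl-CoA thiolase that feeds HMGCS1, despite a symbol once shared with the sterol esterifying enzyme SOAT2. Its level was 68.0, 68.4, 62.2, 53.2 and 64.8 CPM in GF+MEV replicates 1 to 5 and 83.8, 70.7, 77.7, 78.2 and 82.3 CPM in GF+PBS replicates 1 to 5. The groups did not overlap, with GF+MEV replicates 1 and 2 just under GF+PBS replicate 2. *Acat2* fell by 19.4% (log2 fold change -0.31, SE 0.075, edgeR adjusted p = 0.0189), and passed in 18 of the 20 alternatives. It did not pass without GF+PBS replicates 1 and 3, or with replicates 1 and 3 and replicates 4 and 5 each summed into 1 sample. Its neighbouring paralog *Acat3* (ENSMUSG00000062480, chromosome 17, 12923813 to 12940600) was at 144 ± 4.82 CPM against 137 ± 6.14 CPM (SD, n = 5 each; log2 fold change 0.071, edgeR adjusted p = 0.481), and reads shared between the 2 similar genes, which would make both values uncertain, were not measured.

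*Stard4*, a soluble carrier that moves cholesterol between membranes and a target of SREBP-2, was at 156, 136, 152, 159.6 and 182 CPM in GF+MEV replicates 1 to 5 and 141, 199.9, 159, 193 and 218 CPM in GF+PBS replicates 1 to 5. GF+PBS replicates 1 and 3 again lay among the GF+MEV livers, and the other 3 GF+PBS livers were above them all. It did not pass with all livers (log2 fold change -0.21, edgeR adjusted p = 0.28), and its log2 fold change was -0.38 against replicates 2, 4 and 5, the controls with the highest *Stard4*, and 0.065 against replicates 1 and 3. *Soat2*, which esterifies cholesterol for storage and lipoproteins, stood at -0.25 on the log2 fold scale (edgeR adjusted p = 0.102), and *Scarb1*, the receptor for high-density lipoprotein, at 0.085 (edgeR adjusted p = 0.48). *Mylip*, the LXR-induced ligase that marks lipoprotein receptors for breakdown, was with *Fdps* the scarcest gene of the list per length, at 2.09 CPM per kb in GF+MEV and 2.14 CPM per kb in GF+PBS livers, with a log2 fold change of -0.022 whose sign turned to 0.0055 without GF+PBS replicates 1 and 3.

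Of the 5 genes of LXR and export, 0 passed in edgeR at an adjusted p under 0.05. That lies near the 7.64% called over all genes tested. The number was also 0 at an unadjusted p under 0.05 in edgeR, and in DESeq2 and limma-voom. The median log2 fold change of the 5 genes was -0.090. *Nr1h3* and *Nr1h2*, which encode LXRα and LXRβ, had log2 fold changes of -0.071 and -0.090, and were among the steadiest genes of the list, with a coefficient of variation of at most 5.11% within groups. *Abca1*, which loads cholesterol onto apolipoprotein A-I, was at 142 ± 17.3 CPM in GF+MEV and 122 ± 22.1 CPM in GF+PBS livers (log2 fold change 0.21, SE 0.11, edgeR adjusted p = 0.311). *Abcg5*, 1 of the paired half-transporters, was at 198, 184, 188, 149 and 178 CPM in GF+MEV replicates 1 to 5 and 175, 188, 173, 213 and 211 CPM in GF+PBS replicates 1 to 5. Its partner *Abcg8* was at 239.5, 233, 241, 207 and 238 CPM in GF+MEV replicates 1 to 5 and 231, 251, 239, 284 and 266 CPM in GF+PBS replicates 1 to 5. Both genes were lowest in GF+MEV replicate 4 and highest in GF+PBS replicate 4, and both groups overlapped (log2 fold changes -0.099 and -0.13, edgeR adjusted p of 0.545 and 0.273).

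The *Abcg5* and *Abcg8* genes lie head to head on chromosome 17 with the short gap printed above between their RefSeq starts. GENCODE also places an *Abcg8* start at 84676302, inside *Abcg5*, and in that annotation the exons of the pair share 82 bases on opposite strands. Per length they stood at 66.1 and 61.8 CPM per kb in GF+MEV livers and at 70.8 and 67.8 CPM per kb in GF+PBS livers. The log2 ratio of *Abcg5* to *Abcg8* ran from -0.474 to -0.277 in GF+MEV livers and from -0.465 to -0.334 in GF+PBS livers, and its means differed by 0.032 (exact two-sided permutation test, p = 0.508). The ratio differed between groups by less than its spread within them.

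A wider list of 52 genes of the same pathway that are not in the set of 31 was counted in the same fit, of which 50 were tested. Of these, 4 fell (8.0%, against 3.52% of all genes tested) and 3 rose, and the median log2 fold change was -0.035. On the synthesis side, *Cyb5b*, a cytochrome b5 of the outer mitochondrial membrane, fell from 603.9 ± 19.96 to 485 ± 47.5 CPM (SD, n = 5 each; log2 fold change -0.32, edgeR adjusted p = 0.0104). *Nfyb*, a subunit of the CCAAT-binding factor NF-Y, fell from 29.1 ± 2.57 to 23.6 ± 2.53 CPM (log2 fold change -0.30, edgeR adjusted p = 0.045). *Ube2g2*, a ubiquitin-conjugating enzyme of the endoplasmic reticulum, rose from 22.01 ± 2.62 to 26.9 ± 1.24 CPM (log2 fold change 0.29, edgeR adjusted p = 0.0447). *Cd36*, the fatty acid and lipoprotein scavenger receptor, fell from 129 ± 9.55 to 97.7 ± 17.2 CPM (log2 fold change -0.40, edgeR adjusted p = 0.0275).

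Of the 10 genes tested for LXR, oxysterol and sterol disposal, 2 rose (20%, against 4.12% of all genes tested) and the other 8 did not pass. *Cyp27a1*, the mitochondrial sterol 27-hydroxylase of bile acid synthesis, was at 929, 949, 934, 825 and 854 CPM in GF+MEV replicates 1 to 5 and 771, 706, 774, 782 and 692 CPM in GF+PBS replicates 1 to 5 (log2 fold change 0.27, SE 0.060, edgeR adjusted p = 0.0152). *Abcb4*, the canalicular pump for phosphatidylcholine, was at 389.8, 359.5, 350.0, 326 and 386 CPM in GF+MEV replicates 1 to 5 and 295, 307, 305, 305 and 314 CPM in GF+PBS replicates 1 to 5 (log2 fold change 0.25, SE 0.056, edgeR adjusted p = 0.0166). The groups did not overlap for either gene. The number of genes called in the wider list fell from 7 to 4 without GF+MEV replicate 2 or 4, or without GF+PBS replicate 4 or 5. In those fits 6.47%, 6.8%, 5.8% and 7.62% of all genes tested were called, in that order.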

How the data were processed

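Liver RNA of 5 GF+MEV and 5 GF+PBS mice was sequenced on an Illumina platform from libraries made with a NEBNext Ultra RNA kit. The authors made the deposited count table with bcl2fastq 2.17, STAR 2.7.3a on GRCm38 and HTSeq, leaving out genes under 20 counts over the samples. The strand setting and version of HTSeq were not given in the sources used here. Its 5 columns that match no described sample were not used. Symbols, positions and exon lengths came from GENCODE M21.

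Counts as deposited were tested with edgeR 4.0.16 in R 4.3.3 (TMM, quasi-likelihood, treatment group as the only term, at least 20 counts summed, prior count 2, Benjamini-Hochberg over 12147 genes). Levels are TMM-scaled CPM, divided by exon length where genes are compared. Each SE of a fold change came from a separate limma fit to log2 CPM and not from the edgeR fit. Single ratios had exact two-sided permutation tests with scipy 1.17.1. The procedure was run on simulated data with planted changes larger than any fold change of the list. That run therefore does not measure how well changes as small as those reported here are found. Alternatives were DESeq2 1.42.0, limma 3.58.1 (voom), 2 other normalizations, other filters, a replicate block, livers left out or summed and, added after the data were seen, 2 subsets of the GF+PBS livers. Nothing in the labels ties numbers to cages or days, and p-values measure only the spread between these livers.

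The 31 genes and all lists were chosen with earlier results of these data known. Genes past the threshold or without overlap, and the 4 others of the highest level per length, have a value for every liver. So do *Insig2* and *Stard4*, whose values divided the GF+PBS livers. Genes of the wider list are named where called, and 1 of those called is not reported here.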

Additional observations from a re-analysis of the deposited data

Results flagged for a closer look

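Some livers stood far from the other 4 of their group by Dixon's test at the 95% level (a gap of over 0.71 of the group's range). *Mvk* in GF+PBS replicate 5 was at 36.5 CPM, with the other 4 between 45.8 and 48.9 CPM. *Fdft1* in GF+MEV replicate 4 was at 168 CPM, with the others between 201 and 209.7 CPM. *Dhcr7* in GF+PBS replicate 4 was at 155 CPM, with the others between 144.6 and 147.4 CPM. *Abcg8* in GF+MEV replicate 4 was at 207 CPM, with the others between 233 and 241 CPM. The TMM scaling factor of GF+MEV replicate 2 was 0.890, with the others between 0.978 and 1.01. With 70 groups of values examined, chance alone gives about 3.5 such livers, so 5 is close to that number. GF+MEV replicate 4 appears here for *Fdft1* and *Abcg8*, and was also the lowest of its group for 18 of the 31 genes and the highest for 2.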

How the results depend on the processing

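Of 620 fold changes recomputed (31 genes in 20 alternative analyses), 558 kept their direction and their side of the threshold, 35 lost a call, 6 gained one and 21 turned sign. The 6 genes that fell kept their direction throughout. *Sc5d* passed in 20 of 20, *Acat2* in 18, *Mvd* in 13, *Lss* in 12 and *Fdps* and *Insig1* in 11 each. Between 2 and 6 of the 31 genes, 4 and 7 of the wider list and 696 and 926 of all genes were called when 1 liver was left out, and the difference of the *Insig2* to *Insig1* ratio was 0.592 to 0.879 (exact p = 0.0476 without GF+MEV replicate 3 or GF+PBS replicate 1 or 3). With GF+PBS replicates 1 and 3 summed and 4 and 5 summed (median absolute differences in log2 CPM of 0.14 and 0.146 within these pairs, and of 0.134 to 0.214 over all 10 GF+PBS pairs), 1 of the 31 genes, 1 of the wider list and 561 of all genes were called. Against GF+PBS replicates 1 and 3 alone, the medians moved to -0.375 for mevalonate enzymes, -0.123 for SREBP-2 control, -0.065 for uptake, carriage and storage and -0.025 for LXR and export, and the sign turned for *Sqle* (-0.017), *Srebf2* (0.040), *Insig2* (-0.064), *Stard4* (0.065) and *Abcg5* (0.038). Against replicates 2, 4 and 5 alone it turned for *Cyp51* (0.025), *Tm7sf2* (0.025) and *Mylip* (0.0055), and under upper-quartile normalization for *Sqle* (-0.015). Leaving out 1 liver gave -0.011 to 0.079 for *Sqle*, -0.034 to 0.032 for *Srebf2* and -0.14 to 0.034 for *Mylip*. The cause of these changes was not tested.

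Same-numbered livers shared only a number: their deviations correlated at 0.128, -0.0514, -0.151, -0.139 and 0.141, and replicate 1 alone correlated best with its own number. With a replicate block, 5 of the 31 genes, 5 of the wider list and 792 of all genes were called, and *Insig1* was at -0.40 with an edgeR adjusted p of 0.0685. The genes called higher were 53.9% of all calls, 41.2% under upper-quartile normalization, which moved the median of all genes to -0.046, 68.9% against GF+PBS replicates 1 and 3 alone and 49.7% without them. With 5 livers a group and fold changes this small, a gene that did not pass is not shown to be unchanged, and *Fdps* and *Mylip* rest on few counts.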

Other observations

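The division among GF+PBS livers extended to genes outside the set, chosen here after their values were seen. *Srebf1*, which encodes the lipogenic sister of SREBP-2, was at 471, 375, 524, 316 and 413 CPM in GF+MEV replicates 1 to 5 and 345, 621, 332, 598 and 562 CPM in GF+PBS replicates 1 to 5. GF+PBS replicates 1 and 3 lay within the GF+MEV range and the other 3 lay above it, and the gene did not pass (log2 fold change -0.23, edgeR adjusted p = 0.521). *Cyp7a1*, the rate-limiting enzyme of bile acid synthesis, was at 18.7, 33.5, 30.7, 60.1 and 41.0 CPM in GF+MEV replicates 1 to 5 and 25.0, 138, 29.6, 37.3 and 42.0 CPM in GF+PBS replicates 1 to 5, with GF+PBS replicate 2 well above the rest (edgeR adjusted p = 0.486). Of the 8 clock genes examined, *Per1* rose and *Nr1d1* fell, and neither group overlapped the other for these 2 genes. *Nr1d1*, a clock repressor, was at 112, 112, 100.3, 104 and 125 CPM in GF+MEV replicates 1 to 5 and 162, 154, 168, 143 and 142 CPM in GF+PBS replicates 1 to 5 (log2 fold change -0.48, edgeR adjusted p = 0.000592). The part of the clock genes in the levels of the sterol genes was not tested.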
